A study of Homo sapiens with 18 samples.

Results

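The RNA of 51 genes that run the cell cycle, MYC among them, was followed in THP-1, a monocytic leukaemia line of human origin that divides in culture. The genes were taken by symbol from the 57500 genes counted in each library, and each symbol matched 1 gene. They were 5 D and E cyclins, 3 cyclin-dependent kinases of G1 and S phase, 5 CDK inhibitors with RB1, 5 E2F factors, 13 genes of replication licensing and DNA synthesis, 16 genes of G2 and mitosis, the stress-responsive polo-like kinases PLK2 and PLK3, and MYC. All cells had been transduced with lentivirus and carried a short hairpin RNA, either one without a target (shNT), one against the nuclear receptor NR4A2 (shNR4A2) or one against NR4A3 (shNR4A3). The cells were kept under puromycin as stable lines, 1 for each hairpin target, so a difference between lines cannot be told apart from other differences between those lines. Cells of every line were moved to buffered DMEM in a gas chamber and held there for 2 h, and LPS, a bacterial outer membrane lipid that activates monocytes, was then added to some at 2.5 μg/ml for a further 2 h. Control cells stood in the same medium without LPS. There were 3 libraries in each of the 6 groups (shNT, shNR4A2 and shNR4A3, each as control and with LPS), 18 in all, with between 16171161 and 23929138 counted reads per library. The study describes the libraries of a group as independent experiments, and the labels do not say which libraries shared an experiment.

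A cell enters the cycle when D cyclins with CDK4 or CDK6, and then E cyclins with CDK2, phosphorylate RB1 and free the E2F factors that switch on the genes of DNA replication. CDK inhibitors such as p21 (CDKN1A) and p27 (CDKN1B) hold these kinases back, while CDK1 with cyclins A and B drives mitosis. MYC is a transcription factor that promotes growth and cell cycle entry, and its RNA is short-lived. In macrophages LPS is known to slow proliferation, and NR4A receptors are immediate early genes that respond to it.

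None of 12 monocyte markers was at 0 in any library. LYZ (lysozyme) ran from 156 to 1040.0 TPM (counts divided by gene length and scaled to the same sum in each library) over the 18 libraries, SPI1, the myeloid lineage factor, from 532 to 1132 TPM, and TYROBP, an adaptor of myeloid receptors, from 435 to 710.4 TPM. CD68, a lysosomal protein of mature macrophages, stood at 2.23 to 6.46 TPM, and MPO, myeloperoxidase of early myeloid cells, at 2.41 to 6.22 TPM. Among 10 markers of T cells, B cells, red cells, epithelium and fibroblasts, MS4A1 had no count in 16 of the libraries and HBB in 14. The summed level of the 10 was 6.57 ± 0.82 TPM (SD, n = 3) in shNT control cells and 7.09 ± 1.10 TPM with LPS. With LPS each hairpin's target was lower in its own line than in shNT cells, with a log2 fold change of -1.52 (adjusted p = 0.00265) for NR4A2 and -0.82 (adjusted p = 0.000556) for NR4A3 by edgeR's quasi-likelihood test. NR4A2 stood at 62.2, 74.7 and 51.3 TPM in shNT cells with LPS and at 20.5, 28.3 and 14.8 TPM in shNR4A2 cells with LPS, and NR4A3 at 30.9, 32.3 and 31.9 TPM in shNT cells with LPS and at 17.0, 18.2 and 16.7 TPM in shNR4A3 cells with LPS. Without LPS the log2 fold changes were -0.91 (adjusted p = 0.0359) and -2.47 (adjusted p = 0.00767), and the former was lost without shNR4A2 control replicates 1 or 2 or shNT control replicates 1 or 3 (adjusted p between 0.0728 and 0.124). These rest on low levels. NR4A1, NR4A2 and NR4A3 together held a mean of 11.8 TPM in shNT, 9.75 TPM in shNR4A2 and 8.86 TPM in shNR4A3 control cells. The lowest NR4A3 value over the 18 libraries was 0.0315 TPM.

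The members spanned a wide range of RNA levels. In shNT control cells 21 members had a mean above 100 TPM, led by CDC20, an activator of the anaphase-promoting complex (884 ± 96.0 TPM, SD, n = 3), and MCM3, a subunit of the replicative helicase (451 ± 25.5 TPM), a pair that did not overlap. CDKN2C, the CDK4 and CDK6 inhibitor p18, came next (421 ± 22.5 TPM), with MCM7 (410.4 ± 37.2 TPM) and MYC (407 ± 37.0 TPM), and these neighbours differed by less than their spread. Among the D cyclins, CCND3 (306 ± 13.9 TPM) stood far above CCND1 (9.75 ± 0.638 TPM), and CCND2 was close to absent at 0.0225 to 0.291 TPM over the 18 libraries (80 counts in all). CCND2 was the 1 member with too few counts to be tested, and the other 50 were tested in every comparison.

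Promoter motifs were counted by role. RefSeq promoters (GRCh38.p14) were found for 41 members, and the 250 bases before the start site were searched on both strands. MYC was not among the 41, so no motif was searched for it. A site for E2F factors (TTTCCCGC, TTTGGCGC or TTTCGCGC, where neighbouring sites can overlap) was found in 10 of the 41 (24.4%), against 2.38% of all 27305 promoters. By role it was in 6 of 11 promoters of replication genes (54.5%), 3 of 4 of E2F factors (75%) and 1 of 15 of G2 and mitosis genes (6.67%). The cell cycle homology region TTTGAA, through which mitotic genes are held off outside G2, was found in 7 of the 15 promoters of G2 and mitosis genes (46.7%) and in 13.6% of all promoters, and the CCAAT box in 11 of those 15 (73.3%) and in 33% of all. Over the 41 members TTTGAA was in 8 (19.5%) and the CCAAT box in 23 (56.1%). The CCAAT box was also in 7 of 11 promoters of replication genes (63.6%) and 3 of 4 of E2F factors (75%). The E-box CACGTG, to which MYC with MAX can bind, was found in 6 of the 41 (14.6%) and in 6.49% of all. Neither the NR4A monomer site AAAGGTCA (1.05% of all promoters) nor the NF-kB site (0.546% of all) was found in the window of any of the 41. Both are so rare over all promoters that 41 windows cannot show a lack of them. A match is a description of these letters and not of a bound site. The windows that follow show promoters with the same motif in genes whose calls with LPS differed by edgeR with TMM factors. The differences between these genes were not tested. E2F3 (chr6:20401799-20401878, plus strand), an activator E2F whose RNA was called higher with LPS, though not under library size alone, and PCNA (chr20:5126628-5126702, minus strand), the polymerase clamp, whose RNA passed no test with LPS, hold the same E2F site, TTTCCCGC read on the other strand, shown in capitals and beginning 53 and 59 bases before the start.
E2F3: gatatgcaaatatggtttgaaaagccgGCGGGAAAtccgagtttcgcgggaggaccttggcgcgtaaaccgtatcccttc
PCNA: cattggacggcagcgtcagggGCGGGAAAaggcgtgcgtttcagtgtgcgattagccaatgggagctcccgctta
CDC20 (chr1:43358901-43358950, plus strand) and MKI67 (chr10:128126424-128126503, minus strand), whose RNA fell with LPS in shNT cells, and CDK1 (chr10:60778151-60778230, plus strand), which rose, each hold TTTGAA, shown in capitals. The shNT calls of MKI67 and CDC20 were lost in the fit of all 18 libraries, among others, and that of CDK1 with library size alone, as given below.
CDC20: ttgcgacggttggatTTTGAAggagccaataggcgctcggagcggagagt
MKI67: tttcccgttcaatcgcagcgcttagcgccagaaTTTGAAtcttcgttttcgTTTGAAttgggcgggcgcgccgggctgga
CDK1: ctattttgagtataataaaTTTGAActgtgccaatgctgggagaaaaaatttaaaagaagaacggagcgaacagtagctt

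MYC, on chromosome 8, fell the most of the members under LPS. In shNT cells its level was 381, 391 and 449.7 TPM without LPS and 58.5, 45.8 and 52.5 TPM with LPS. In shNR4A2 cells it went from 254, 265 and 272 TPM to 90.4, 56.0 and 68.2 TPM, and in shNR4A3 cells from 359, 401 and 356 TPM to 81.0, 51.7 and 66.5 TPM. Every LPS library lay far below every control library of its line, and the shNR4A2 control libraries lay below all other control libraries. On the log2 scale MYC had a fold change of -2.74 (SE 0.11, adjusted p = 2.06e-10) in shNT cells, by edgeR's quasi-likelihood test with Benjamini-Hochberg adjustment over all genes tested. It was -1.60 (SE 0.18, adjusted p = 3.85e-05) in shNR4A2 cells and -2.24 (SE 0.16, adjusted p = 1.96e-06) in shNR4A3 cells. Set against the mean of the controls, shNT cells with LPS kept 0.128 of their MYC RNA, shNR4A2 cells 0.271 and shNR4A3 cells 0.179.

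Whether the fall of MYC differed between lines was tested as an interaction of LPS and line. The fold change with LPS was less negative in shNR4A2 than in shNT cells by a log2 of 1.14 (SE 0.22), with an unadjusted p of 0.000113 and an adjusted p of 0.946 by edgeR, so that it did not pass. It did pass with DESeq2 (adjusted p = 0.045), with a replicate block (adjusted p = 0.0391), without the filter on low counts (adjusted p = 6.71e-08) and without shNR4A2 LPS replicate 2 (adjusted p = 0.015), while over the other alternatives the adjusted p lay at 0.571 or above. For shNR4A3 against shNT cells the difference was 0.49 (SE 0.21, adjusted p = 0.951), and no alternative called it. By edgeR the interaction called 0 of 16674 genes for shNR4A2 (0%) and 0 of 16428 for shNR4A3 (0%), with 365 and 824 genes at an unadjusted p under 0.05. MYC was 1 of 2 members at that limit in shNR4A2 cells, with CDKN1A, and 1 of 3 in shNR4A3 cells, with CDKN1B and CDKN2C.

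**Figure D1:**
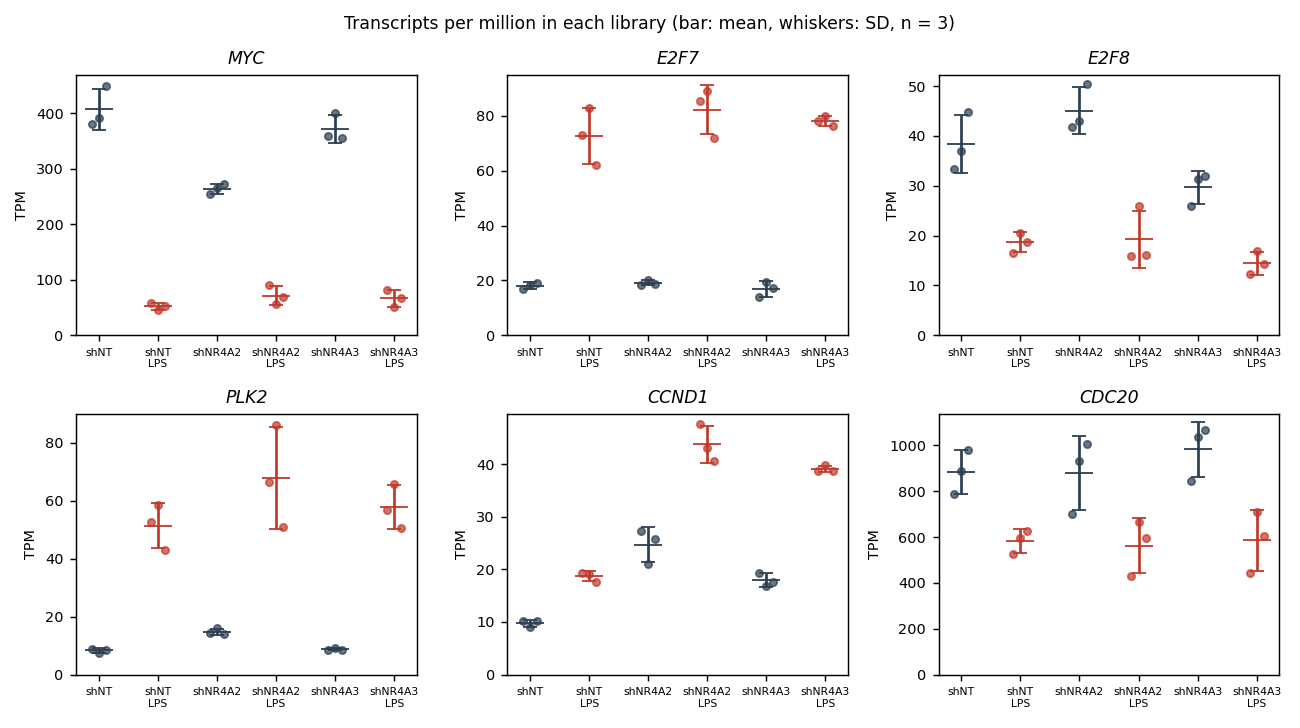
RNA level in TPM (vertical axis, from 0) of 6 members in each of the 18 libraries (points), with the mean (bar) and SD (whiskers) of the 3 libraries of a group, controls in dark blue and LPS in red. MYC falls from between 254 and 450 TPM to between 45.8 and 90.4 TPM, E2F7 and PLK2 lie higher and E2F8 and CDC20 lower with LPS than without in every library of each line, and CCND1 is higher in both knockdown lines with and without LPS.

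Across the members, LPS called 19 of 50 in shNT cells, 9 higher and 10 lower, where 24.9% of all 15711 genes tested were called (11.6% higher, 13.3% lower). It called 15 in shNR4A2 cells, 9 higher and 6 lower (19.3% of all genes, 9.23% and 10.1% by direction), and 19 in shNR4A3 cells, 9 higher and 10 lower (28.1% of all genes, 13.1% and 15% by direction). The median log2 fold change of the members was -0.036, -0.045 and -0.11 in shNT, shNR4A2 and shNR4A3 cells, beside -0.013, -0.016 and -0.011 over all genes tested. The groups did not overlap for 31, 24 and 34 members, against 48.5%, 46% and 51.6% of all genes. At a limit of 2-fold as well, 5, 6 and 6 members were called, against 7.56%, 8.76% and 10.3% of all genes. The direction of the smaller changes rested on the scaling. With library size alone in place of TMM factors, the median of all genes moved by -0.17, -0.22 and -0.20, and the members called were 6 higher and 17 lower in shNT cells, 8 and 13 in shNR4A2 cells and 7 and 22 in shNR4A3 cells. That scaling also called more of all genes, 33.5% in shNT cells (7.06% higher, 26.5% lower), 28.8% in shNR4A2 cells (6.4% and 22.4%) and 37.9% in shNR4A3 cells (8.58% and 29.3%), so counts with library size alone stand beside these shares and other values below are relative to the TMM scaling. Replicate numbers paired the libraries of the knockdown lines, and with the number as a blocking term 19 members were called in shNR4A2 cells (30.1% of all genes) and 26 in shNR4A3 cells (39.4%). The LPS comparisons of the 3 lines share no library. In them 23 members were called in at least 1 line, none in opposite directions, and 13 were called in all of the lines, 8 higher (CCND1, CCNE2, CDK6, E2F3, E2F7, CDK1, PLK2 and PLK3) and 5 lower (CCND3, E2F8, CDT1, AURKA and MYC). Calls shared between lines are not given here for all genes, so these counts describe the members alone. Apart from the 2-fold limit, no alternative run here ended a call of CCND1, CCNE2, E2F7, PLK2, PLK3, E2F8 or MYC in any of the lines, while CDK6, E2F3, CDK1, CCND3, CDT1 and AURKA each lost 1 or more of theirs, as given with their values below. In bulk RNA, fewer cells in a phase of the cycle and less RNA per cell cannot be told apart.

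**Figure D2:**
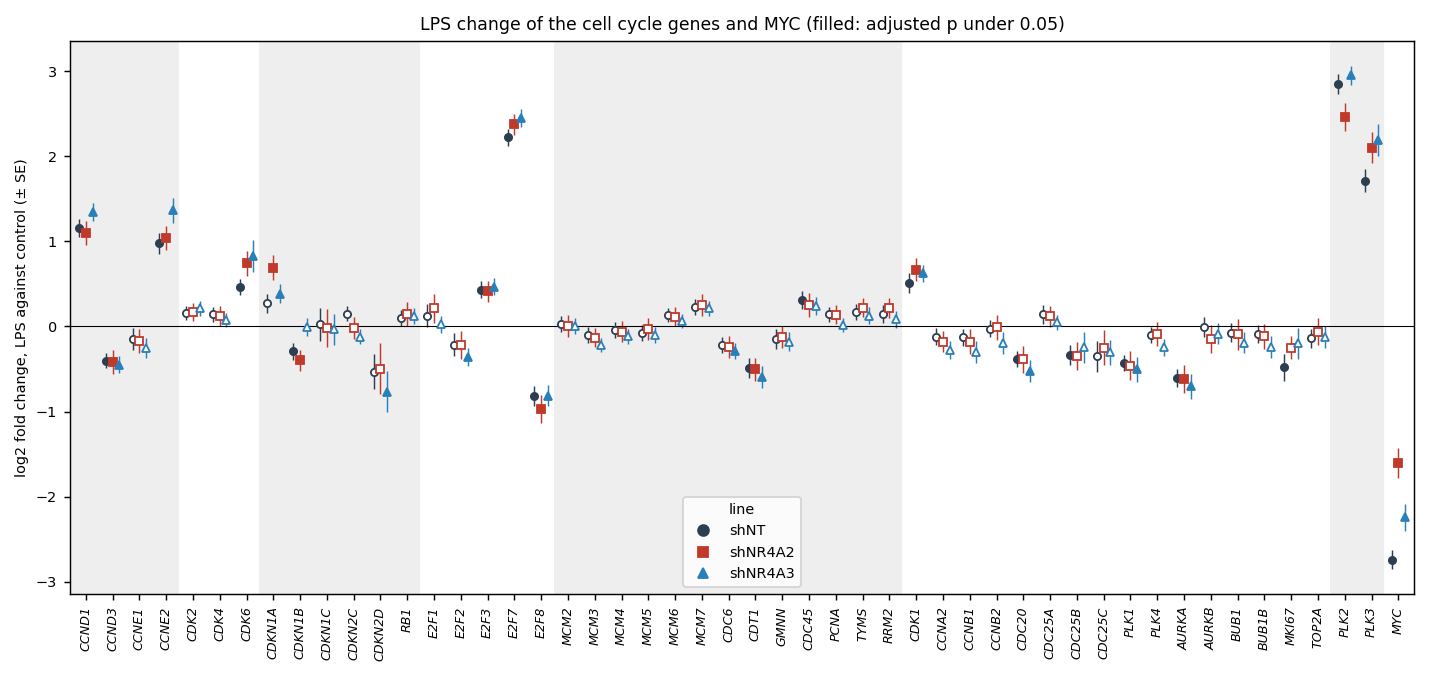
Log2 fold change with LPS (vertical axis, ± SE) of the 50 tested members in shNT, shNR4A2 and shNR4A3 cells, grouped by role from left to right (grey and white bands: D and E cyclins, G1 and S kinases, CDK inhibitors and RB1, E2F factors, replication genes, G2 and mitosis genes, PLK2 and PLK3, MYC). Filled symbols passed an adjusted p under 0.05, and most replication and mitotic genes lie within 1 unit of 0 while PLK2, PLK3, E2F7 and MYC stand away from it in all of the lines.

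The D cyclins, which start the cycle with CDK4 and CDK6, moved apart under LPS. CCND1 (chr11:69641087-69654474, GRCh38) stood at 10.1, 9.01 and 10.1 TPM in shNT control libraries and at 19.3, 19.1 and 17.6 TPM with LPS. It went from 27.3, 21.0 and 25.8 to 47.6, 43.0 and 40.6 TPM in shNR4A2 cells and from 19.4, 16.9 and 17.6 to 38.8, 39.7 and 38.7 TPM in shNR4A3 cells. CCND1 thus rose in every line without overlap, and the shNR4A2 control libraries lay above the shNT libraries with LPS. Its log2 fold change with LPS was 1.16 (SE 0.11, adjusted p = 2.11e-06) in shNT, 1.09 (SE 0.14, adjusted p = 0.000132) in shNR4A2 and 1.35 (SE 0.11, adjusted p = 4.13e-06) in shNR4A3 cells by edgeR. The exons of CCND1 share 10.3% of their bases with LTO1 on the other strand, and it is not stated whether counting used strand. CCND3 (chr6:41934933-42050357) went the other way, from 321, 305 and 293 to 215, 202 and 182 TPM in shNT cells, from 348, 323 and 300.2 to 226, 209.8 and 168 TPM in shNR4A2 cells and from 309, 284 and 257 to 182, 185 and 165 TPM in shNR4A3 cells. All LPS libraries of CCND3 lay below all control libraries, with log2 fold changes by edgeR of -0.40 (SE 0.09, adjusted p = 0.00348) in shNT, -0.42 (SE 0.14, adjusted p = 0.0499) in shNR4A2 and -0.45 (SE 0.10, adjusted p = 0.00588) in shNR4A3 cells. The call in shNR4A2 cells was lost with RLE factors (adjusted p = 0.0693) and without shNR4A2 LPS replicates 2 or 3 or any 1 of the shNR4A2 control replicates (adjusted p between 0.0569 and 0.24).

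Of the E cyclins, which carry cells into S phase with CDK2, CCNE2 was called and CCNE1 was not under TMM scaling. CCNE2 stood at 22.3, 21.5 and 27.2 TPM in shNT control cells and at 33.7, 40.6 and 45.4 TPM with LPS, and rose with log2 fold changes by edgeR of 0.98 (SE 0.12, adjusted p = 4.5e-05) in shNT, 1.04 (SE 0.14, adjusted p = 0.000249) in shNR4A2 and 1.36 (SE 0.15, adjusted p = 5.28e-05) in shNR4A3 cells. Its exons share 37.1% of their bases with genes on the other strand, INTS8 among them. CCNE1 went from 27.9, 37.4 and 35.8 to 23.8, 26.4 and 27.9 TPM in shNT cells and was not called, with log2 fold changes of -0.15 (adjusted p = 0.457), -0.17 (adjusted p = 0.452) and -0.25 (adjusted p = 0.129) for the shNT, shNR4A2 and shNR4A3 lines by edgeR. Under library size alone CCNE1 was called lower in shNR4A3 cells (-0.45, adjusted p = 0.015) and had -0.32 (adjusted p = 0.0806) in shNT and -0.39 (adjusted p = 0.0648) in shNR4A2 cells.

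Of the G1 and S kinases, CDK6 (chr7:92604921-92836594), a partner of the D cyclins, was the 1 that changed. It stood at 73.5, 69.9 and 94.2 TPM in shNT control cells and at 87.6, 100.3 and 91.9 TPM with LPS, groups that overlapped in TPM, and rose on the TMM scale by 0.46 (SE 0.09, adjusted p = 0.00249) on the log2 scale by edgeR. In shNR4A2 cells it went from 51.9, 69.3 and 61.8 to 70.9, 85.9 and 97.4 TPM and in shNR4A3 cells from 38.4, 79.6 and 59.4 to 90.2, 82.0 and 93.9 TPM, without overlap, with log2 fold changes by edgeR of 0.74 (SE 0.15, adjusted p = 0.00326) and 0.83 (SE 0.19, adjusted p = 0.00674). The call in shNT cells was lost when all 18 libraries were fitted together (adjusted p = 0.07). CDK4 and CDK2 had log2 fold changes between 0.08 and 0.21 in the 3 lines, and none passed by edgeR.

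The CDK inhibitors called with LPS went in both directions over the 3 lines. Of the 6 genes of this list, RB1 included, LPS called 0 higher and 1 lower in shNT cells and 1 and 1 in each knockdown line by edgeR. Of all genes, 11.6% were called higher and 13.3% lower in shNT cells, 9.23% and 10.1% in shNR4A2 cells and 13.1% and 15% in shNR4A3 cells. Of the 6, 2, 4 and 4 had a negative log2 fold change in shNT, shNR4A2 and shNR4A3 cells. Under library size alone 5 of the 6 were negative in each line, and 0 and 2, 1 and 1, and 0 and 2 were called. CDKN1A (chr6:36676460-36687339), the p53 target p21, stood at 145, 182 and 153 TPM in shNT control cells and at 173, 181 and 145 TPM with LPS, at 178, 268 and 220.1 and 295, 330.1 and 269.8 TPM in shNR4A2 cells, and at 151, 217 and 180.5 and 208, 203 and 197 TPM in shNR4A3 cells. The groups overlapped in shNT and shNR4A3 cells and stood apart in shNR4A2 cells. Its log2 fold change with LPS by edgeR was 0.27 (SE 0.11, adjusted p = 0.0871) in shNT, 0.69 (SE 0.15, adjusted p = 0.00552) in shNR4A2 and 0.38 (SE 0.11, adjusted p = 0.0219) in shNR4A3 cells. In shNT cells CDKN1A passed without the filter on low counts (adjusted p = 0.0443) and without shNT control replicate 2 (adjusted p = 0.0131). The call in shNR4A3 cells was lost with library size alone (adjusted p = 0.217) and without shNR4A3 LPS replicates 1 or 3 or control replicates 1 or 3 (adjusted p between 0.0603 and 0.0846). CDKN1B, p27, fell in shNT and shNR4A2 cells, with log2 fold changes by edgeR of -0.29 (adjusted p = 0.0466) and -0.40 (adjusted p = 0.0452), and had -0.0047 (adjusted p = 0.981) in shNR4A3 cells, a difference between lines that did not pass as an interaction (adjusted p = 0.985 for shNR4A3 and shNT). Both calls of CDKN1B were lost with DESeq2, with RLE factors, without the filter and without any 1 library (adjusted p between 0.0539 and 0.184). CDKN2D, p19, had -0.53 (adjusted p = 0.0758), -0.50 (adjusted p = 0.285) and -0.77 (adjusted p = 0.034), called by edgeR in shNR4A3 cells alone, a call lost in the fit of all 18 libraries and without shNR4A3 LPS replicates 1 or 3 or control replicate 2 (adjusted p between 0.084 and 0.142). With the replicate block it was also called in shNR4A2 cells, -0.55 (adjusted p = 0.0216). RB1, CDKN1C and CDKN2C were not called in any line.

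E2F7 and E2F8, the atypical E2Fs that repress E2F targets and are often described together, changed in opposite directions. E2F7 (chr12:77021247-77065580) rose from 16.9, 18.2 and 19.2 to 72.9, 82.8 and 62.1 TPM in shNT cells, from 18.5, 20.1 and 18.7 to 85.5, 89.1 and 72.1 TPM in shNR4A2 cells and from 13.9, 19.5 and 17.1 to 78.1, 80.1 and 76.3 TPM in shNR4A3 cells. E2F8 (chr11:19224063-19241620) fell from 33.3, 37.0 and 44.8 to 16.5, 20.6 and 18.8 TPM, from 41.8, 43.0 and 50.4 to 15.8, 25.9 and 16.1 TPM and from 25.9, 31.4 and 31.9 to 12.2, 16.8 and 14.4 TPM in the same order. No LPS library overlapped the controls of its line for either gene, so that E2F8, the more abundant of the pair without LPS, was the less abundant with it in every library. By edgeR the log2 fold changes of E2F7 were 2.22 (SE 0.10, adjusted p = 1.08e-09) in shNT, 2.37 (SE 0.12, adjusted p = 4e-08) in shNR4A2 and 2.45 (SE 0.11, adjusted p = 3.91e-08) in shNR4A3 cells. Those of E2F8 were -0.82 (SE 0.12, adjusted p = 0.000134) in shNT, -0.97 (SE 0.16, adjusted p = 0.00108) in shNR4A2 and -0.81 (SE 0.12, adjusted p = 0.000452) in shNR4A3 cells. E2F3, an activator, rose by less, with 0.43 (adjusted p = 0.00521), 0.41 (adjusted p = 0.0344) and 0.47 (adjusted p = 0.00477) in shNT, shNR4A2 and shNR4A3 cells. Its calls were lost with library size alone in each line (0.26, 0.19 and 0.27, adjusted p = 0.0662, 0.28 and 0.0574), and in shNR4A2 cells also without the filter on low counts (adjusted p = 0.129) and without any 1 library other than shNR4A2 LPS replicate 2 (adjusted p between 0.0606 and 0.133). E2F2 had -0.22 (adjusted p = 0.286), -0.22 (adjusted p = 0.407) and -0.36 (adjusted p = 0.0299) in the same order by edgeR, values below 0 in each line of which that in shNR4A3 cells was called, with no difference between lines that passed as an interaction (adjusted p = 0.999 for shNR4A3 and shNT). The call was lost with DESeq2, without the filter, in the fit of all 18 libraries and without any 1 library other than shNR4A3 LPS replicate 2 (adjusted p between 0.0545 and 0.143). E2F1 was not called.

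Few genes of replication licensing and DNA synthesis were called with LPS under TMM scaling. Of the 13, LPS called 2 in shNT cells, 1 in shNR4A2 cells and 2 in shNR4A3 cells, where 24.9%, 19.3% and 28.1% of all genes were called. The log2 fold changes of the 13 lay between -0.49 and 0.31 in shNT, -0.50 and 0.25 in shNR4A2 and -0.59 and 0.24 in shNR4A3 cells, with 6 of 13 negative in each line. Under library size alone 11, 10 and 11 of the 13 were negative and 3, 3 and 6 were called lower, none higher, with CDT1, CDC6 and MCM3 among them in each line. CDT1, which loads the MCM helicase at origins, fell in each line, from 105, 142 and 133 to 68.4, 82.6 and 82.0 TPM in shNT cells, without overlap. Its log2 fold changes by edgeR were -0.49 (adjusted p = 0.00722), -0.50 (adjusted p = 0.0209) and -0.59 (adjusted p = 0.0042) in shNT, shNR4A2 and shNR4A3 cells. The call of CDT1 in shNR4A2 cells was lost without shNR4A2 LPS replicates 1 or 3 or control replicate 2 (adjusted p between 0.0689 and 0.108). CDC45, a helicase cofactor, was called higher in shNT cells with 0.31 (adjusted p = 0.0488) and CDC6, a licensing factor, lower in shNR4A3 cells with -0.29 (adjusted p = 0.0368), both by edgeR. The call of CDC45 was lost with library size alone, in the fit of all 18 libraries and without shNT LPS replicates 2 or 3 or control replicates 1 or 3 (adjusted p between 0.0984 and 0.347). That of CDC6 was lost with DESeq2, without the filter and without any 1 library other than shNR4A3 LPS replicate 2 (adjusted p between 0.0551 and 0.15). The MCM2 to MCM7 genes, GMNN, PCNA, TYMS and RRM2 were not called in any line by edgeR with TMM factors. PCNA (chr20:5114953-5126626) stood at 278, 303 and 294 TPM in shNT control cells and at 255, 306 and 271 TPM with LPS, overlapping groups, with log2 fold changes of 0.14 (adjusted p = 0.271), 0.14 (adjusted p = 0.453) and 0.02 (adjusted p = 0.905) by edgeR, which turned to -0.03, -0.08 and -0.18 with library size alone. With the replicate block, MCM3 was called lower (-0.22, adjusted p = 0.0143) and MCM7 and CDC45 higher (0.22, adjusted p = 0.0205, and 0.25, adjusted p = 0.033) in shNR4A3 cells.

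Most mitotic genes had a lower estimate with LPS, a part of them passed the test, and CDK1 was the 1 called higher. Of the 16 genes of G2 and mitosis, 14 had a negative log2 fold change with LPS in each line, and 15 did in each line with library size alone. LPS called 1 higher and 5 lower in shNT cells, 1 and 1 in shNR4A2 cells and 1 and 3 in shNR4A3 cells by edgeR. The 5, 1 and 3 called lower stand beside 13.3%, 10.1% and 15% of all genes called lower in these lines. With library size alone the counts were 0 and 9, 1 and 6, and 1 and 9, and with the replicate block 1 and 4 in shNR4A2 cells and 1 and 7 in shNR4A3 cells. Their summed level was 2319 ± 301 TPM in shNT control cells and 1695 ± 176 TPM with LPS (SD, n = 3), 2184 ± 338 and 1570.2 ± 295 TPM in shNR4A2 cells and 2467 ± 344 and 1706 ± 315 TPM in shNR4A3 cells. The sum, of which CDC20 is the largest part, is on the TPM scale and holds the shift of the median described above.

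AURKA (chr20:56369389-56392337), the centrosome kinase, went from 94.2, 98.9 and 124 to 52.6, 66.7 and 59.9 TPM in shNT cells, from 95.7, 109.8 and 139 to 46.3, 75.5 and 65.2 TPM in shNR4A2 cells and from 102, 132 and 131 to 48.0, 80.1 and 64.3 TPM in shNR4A3 cells. It was lower without overlap in every line, with log2 fold changes by edgeR of -0.60 (SE 0.11, adjusted p = 0.00089) in shNT, -0.62 (SE 0.17, adjusted p = 0.0195) in shNR4A2 and -0.70 (SE 0.14, adjusted p = 0.00381) in shNR4A3 cells. The call in shNR4A2 cells was lost without shNR4A2 LPS replicate 1 or control replicates 2 or 3 (adjusted p between 0.058 and 0.0928). CDC20 went from 787, 887 and 979 to 525, 598 and 627 TPM in shNT cells and had log2 changes of -0.38 (adjusted p = 0.00932), -0.38 (adjusted p = 0.117) and -0.52 (adjusted p = 0.0118) for the shNT, shNR4A2 and shNR4A3 lines by edgeR. PLK1, the mitotic polo-like kinase, had -0.43 (adjusted p = 0.0051), -0.46 (adjusted p = 0.0755) and -0.50 (adjusted p = 0.0243). CDC20 lost its call in shNT cells in the fit of all 18 libraries (adjusted p = 0.0788) and without shNT LPS replicate 1 (adjusted p = 0.0607), and in shNR4A3 cells without control replicate 3 (adjusted p = 0.0579). PLK1 lost its call in shNT cells in the fit of all 18 libraries (adjusted p = 0.0668), and in shNR4A3 cells without LPS replicates 1 or 3 or control replicates 2 or 3 (adjusted p between 0.0516 and 0.091). In shNR4A2 cells the replicate block called both, with -0.38 (adjusted p = 0.00632) for CDC20 and -0.46 (adjusted p = 0.00311) for PLK1, and also CDC25B, a phosphatase that activates CDK1, with -0.35 (adjusted p = 0.0338). CDC25B was called by edgeR without the block in shNT cells alone, with -0.33 (adjusted p = 0.0442). That call was lost with DESeq2, with RLE factors, without the filter, in the fit of all 18 libraries and without any 1 library (adjusted p between 0.0511 and 0.174). In shNR4A3 cells the block added CCNA2, CCNB1, PLK4 and BUB1B, each lower, the largest being CCNB1, the main mitotic cyclin, with -0.31 (adjusted p = 0.0076).

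MKI67 (chr10:128096659-128126385), which encodes the proliferation marker Ki-67, stood at 136, 131 and 212 TPM in shNT control cells and at 80.0, 123 and 89.8 TPM with LPS, with 1 control library well above the others. Its log2 fold changes by edgeR were -0.48 (SE 0.16, adjusted p = 0.0388) in shNT, -0.25 (SE 0.14, adjusted p = 0.235) in shNR4A2 and -0.20 (SE 0.18, adjusted p = 0.444) in shNR4A3 cells, and the call in shNT cells was lost without shNT control replicate 3 (-0.26, adjusted p = 0.188), without shNT LPS replicates 1 or 3 (adjusted p = 0.133 and 0.127), with DESeq2 (adjusted p = 0.238) and in the fit of all 18 libraries (adjusted p = 0.0875). CDK1 (chr10:60778331-60794852), the kinase that starts mitosis, rose, from 76.4, 76.9 and 107 to 97.7, 105 and 115 TPM in shNT cells, from 73.7, 85.6 and 98.8 to 107, 107 and 125 TPM in shNR4A2 cells and from 81.6, 105 and 100.4 to 121, 120.3 and 135 TPM in shNR4A3 cells. Its groups overlapped in shNT cells and not in the knockdown lines. By edgeR the log2 fold changes were 0.51 (SE 0.12, adjusted p = 0.00472) in shNT, 0.67 (SE 0.14, adjusted p = 0.00399) in shNR4A2 and 0.62 (SE 0.10, adjusted p = 0.000937) in shNR4A3 cells, and with library size alone the value in shNT cells was 0.34 (adjusted p = 0.0512).

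PLK2 and PLK3, polo-like kinases that respond to stress rather than drive mitosis, rose together. PLK2 (chr5:58453982-58460260) went from 8.84, 7.47 and 8.62 to 52.7, 58.6 and 43.1 TPM in shNT cells, from 14.2, 16 and 14.1 to 66.6, 86.1 and 51.1 TPM in shNR4A2 cells and from 8.49, 9.11 and 8.60 to 57.0, 65.8 and 50.6 TPM in shNR4A3 cells. PLK3 (chr1:44800225-44805990) went from 15.5, 15.6 and 12.4 to 47.4, 39.5 and 36.3 TPM, from 15.0, 15.7 and 12.6 to 57.6, 42.3 and 53.6 TPM and from 16.6, 17.4 and 12.6 to 73.1, 47.5 and 59.2 TPM in the same order. All LPS libraries lay above all controls. By edgeR the log2 fold changes of PLK2 were 2.84 (SE 0.12, adjusted p = 3.69e-10) in shNT, 2.46 (SE 0.17, adjusted p = 3.97e-07) in shNR4A2 and 2.95 (SE 0.11, adjusted p = 1.1e-08) in shNR4A3 cells. Those of PLK3 were 1.71 (SE 0.14, adjusted p = 5.64e-07) in shNT, 2.10 (SE 0.18, adjusted p = 3.44e-06) in shNR4A2 and 2.19 (SE 0.19, adjusted p = 8.56e-06) in shNR4A3 cells.

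Other genes of the same pathways, listed apart from the members, were measured beside them, and their counts can be read against the 11.6% higher and 13.3% lower of all genes in shNT cells, 9.23% and 10.1% in shNR4A2 cells and 13.1% and 15% in shNR4A3 cells. Of 48 other G2 and mitosis genes, LPS called 2 higher and 15 lower in shNT cells, 1 and 8 in shNR4A2 cells and 2 and 17 in shNR4A3 cells by edgeR, with medians of -0.17, -0.17 and -0.26 on the log2 scale. These counts became 2 and 26, 0 and 20, and 1 and 29 with library size alone, and with the replicate block 4 and 17 in shNR4A2 and 4 and 24 in shNR4A3 cells. The largest falls in shNT cells were those of HJURP, a centromere histone chaperone, with -0.96 (adjusted p = 1.9e-05), and CCNF, the F-box cyclin, with -0.95 (adjusted p = 1.74e-05), while PTTG1, securin, rose by 0.48 (adjusted p = 0.00405). Of 36 other S phase genes, 1 was called higher and 3 lower in shNT cells, 1 and 2 in shNR4A2 cells and 2 and 9 in shNR4A3 cells, with UHRF1, a maintenance methylation factor, at -0.60 (adjusted p = 0.000528) in shNT cells. The S phase counts with library size alone were 0 and 13, 0 and 10, and 0 and 20, so how many were called lower rested on the scaling. With the replicate block they were 4 and 4 in shNR4A2 and 5 and 13 in shNR4A3 cells. Of 27 other cyclins, CDKs and CDK inhibitors, 25 were tested, and 5 were higher and 3 lower in shNT cells, 5 and 2 in shNR4A2 cells and 7 and 3 in shNR4A3 cells, a balance that turned to 1 and 6, 1 and 5, and 4 and 6 with library size alone. The replicate block gave 5 and 4 in shNR4A2 and 7 and 3 in shNR4A3 cells. CDK5R1, an activator of CDK5, had the largest fall in shNT cells with -1.62 (adjusted p = 2.82e-05). CCNG2, a cyclin of quiescent cells, had -1.13 (adjusted p = 0.000744) and CCNL1, a splicing cyclin, 1.34 (adjusted p = 1.24e-07) there by edgeR. Of 11 RB and E2F partners, none was called higher in any line, and 2 were called lower in shNT, 1 in shNR4A2 and 2 in shNR4A3 cells, or 2, 2 and 5 with library size alone, and 2 and 3 in the knockdown lines with the replicate block. In shNT cells these were LIN54 of the DREAM complex with -0.63 (adjusted p = 0.00023) and LIN9 with -0.36 (adjusted p = 0.0281). The LIN9 call was lost without shNT LPS replicates 1 or 2 or control replicates 2 or 3 (adjusted p between 0.0594 and 0.133).

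Partners of MAX moved in both directions. MXD1, which competes with MYC for MAX, went from 11.8, 7.87 and 9.58 to 55.3, 47.6 and 29.9 TPM in shNT cells, without overlap, and had log2 fold changes of 2.39 (adjusted p = 5.36e-07), 2.23 (adjusted p = 2.37e-05) and 2.36 (adjusted p = 3.11e-07) for the shNT, shNR4A2 and shNR4A3 lines by edgeR. MNT and MXD3, from the same family of MAX partners, fell, with -1.20 (adjusted p = 4e-05) and -0.99 (adjusted p = 0.00036) in shNT cells. MYCL rose by 0.63 (adjusted p = 0.00891) there. Over the 13 tested genes of the network, 2 were higher and 4 lower in shNT cells, 1 and 4 in shNR4A2 cells and 2 and 6 in shNR4A3 cells, and with library size alone 2 and 8, 1 and 7, and 2 and 7. The replicate block gave 2 and 5 in shNR4A2 and 4 and 7 in shNR4A3 cells. Among 22 MYC targets of ribosome and polyamine synthesis, 6 were higher and 3 lower in shNT cells, 2 and 4 in shNR4A2 cells and 4 and 3 in shNR4A3 cells, with medians of 0.166, 0.075 and 0.05 on the log2 scale. With library size alone these counts were 1 and 4, 1 and 6, and 1 and 7, and with the replicate block 4 and 5 in shNR4A2 and 7 and 5 in shNR4A3 cells. DDX21, a nucleolar helicase, had the largest rise in shNT cells with 0.82 (adjusted p = 2.06e-05), while NOP2, an rRNA methyltransferase, had -0.40 (adjusted p = 0.00658).

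A list of 22 p53 targets, checkpoint and antiproliferative genes held genes that act in opposite ways, among them MDM2, MDM4 and PPM1D, which oppose p53. Of these genes LPS called 9 higher and 2 lower in shNT cells, 10 and 1 in shNR4A2 cells, and 11 and 2 of 21 tested in shNR4A3 cells by edgeR, beside 11.6% and 13.3%, 9.23% and 10.1%, and 13.1% and 15% of all genes. With library size alone the counts were 8 and 5, 8 and 2, and 8 and 4, with the replicate block 10 and 1 in shNR4A2 and 11 and 3 in shNR4A3 cells, and under library size 11 of the 22 had a positive log2 fold change in shNT cells. BTG2, an antiproliferative gene of the BTG and TOB family, stood at 37.3, 35.5 and 33.5 TPM in shNT control cells and at 1338, 1478 and 1524 TPM with LPS. It had the largest rise of the list in each line, with log2 fold changes by edgeR of 5.57 (adjusted p = 2.17e-13), 5.32 (adjusted p = 1.86e-10) and 5.59 (adjusted p = 2.24e-10) in shNT, shNR4A2 and shNR4A3 cells. BTG3 of the same family had 2.15 (adjusted p = 3.56e-10) in shNT cells, while TOB1, a relative of both, fell there with -0.56 (adjusted p = 0.00125). TP53INP1, a p53 target, had 1.55 (adjusted p = 1.22e-05), 1.97 (adjusted p = 4.61e-05) and 2.40 (adjusted p = 1.22e-05) in the same order, and the difference between shNR4A3 and shNT cells did not pass as an interaction (adjusted p = 0.942).

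**Figure D3:**
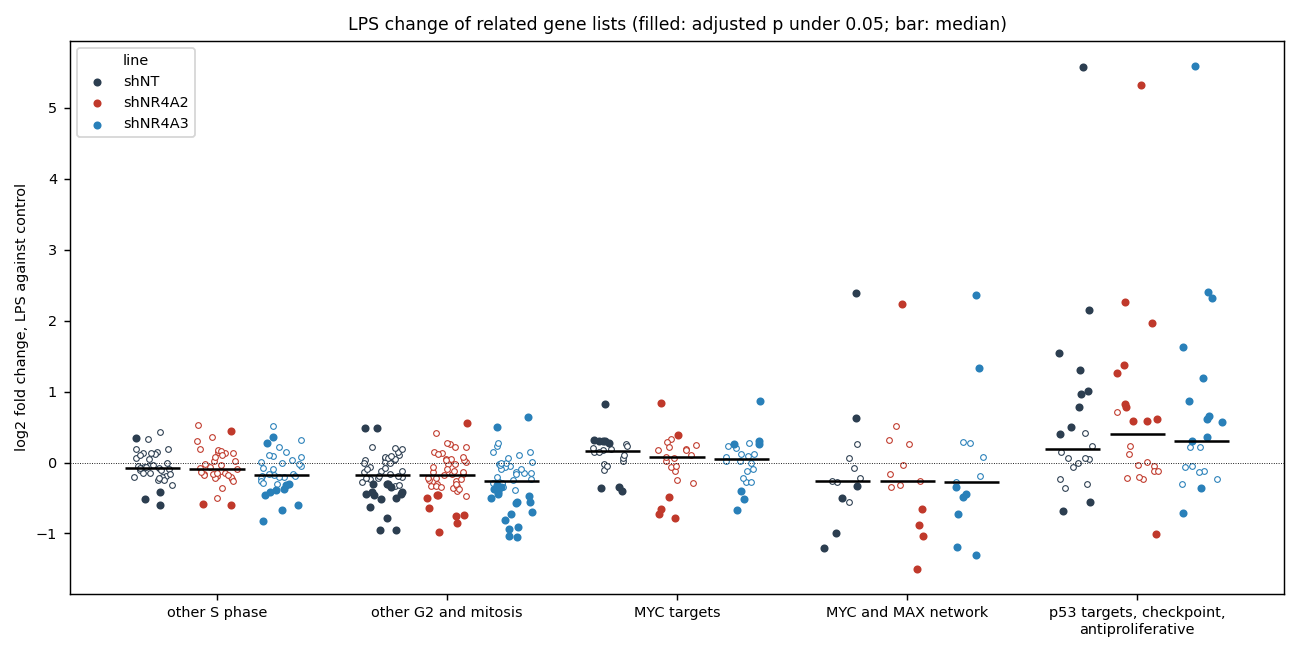
Log2 fold change with LPS (vertical axis) of each tested gene in 5 related lists, in shNT, shNR4A2 and shNR4A3 cells, with the median of each list as a bar and filled points at an adjusted p under 0.05. Most other G2 and mitosis genes lie below 0, the medians of the MYC targets lie between 0.05 and 0.166, and the highest point of the last list in each line is BTG2.

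Between the knockdown lines and shNT cells, members were called by edgeR at about the share of all genes, and more were called with the replicate block. The comparisons of both knockdown lines with shNT share the shNT libraries. Without LPS, shNR4A2 cells had 3 of 50 members called, 2 higher and 1 lower, where 6.45% of all genes were called (3.63% higher, 2.82% lower). The shNR4A3 cells had 2, both higher (7.23% of all genes, 3.91% higher and 3.32% lower). With LPS there were 2 in shNR4A2 cells (6.96% of all genes, 4.31% higher and 2.65% lower) and 3 for shNR4A3 (6.45%, 3.99% higher and 2.46% lower), all of them higher. Replicate numbers paired the libraries in these comparisons, and with the number as a block 17 members (8 higher, 9 lower, 23.6% of all genes) and 8 members (7 and 1, 14.8%) were called without LPS, and 14 (10 and 4, 28.1%) and 13 (9 and 4, 21.8%) with LPS. The members' medians of the log2 fold change lay between -0.005 and 0.057, beside medians of all genes between -0.009 and -0.001.

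CCND1 was the 1 member called in each of these comparisons. Its control libraries held 10.1, 9.01 and 10.1 TPM in shNT, 27.3, 21.0 and 25.8 TPM in shNR4A2 and 19.4, 16.9 and 17.6 TPM in shNR4A3 cells, without overlap between either knockdown line and shNT. The log2 fold change against shNT by edgeR was 1.34 (SE 0.13, adjusted p = 0.000172) in shNR4A2 cells and 0.93 (SE 0.12, adjusted p = 0.000406) in shNR4A3 cells without LPS. With LPS, where the values are those given above, it was 1.29 (SE 0.11, adjusted p = 0.000336) and 1.12 (SE 0.08, adjusted p = 0.000121). Of the alternatives run here, a limit of 2-fold ended the call in shNR4A3 cells without LPS, and the other 3 calls held under each. Between the knockdown lines the log2 fold change of shNR4A3 against shNR4A2 was -0.41 (SE 0.13, adjusted p = 0.136) without LPS, which passed with the replicate block (-0.41, adjusted p = 0.008), and -0.16 (SE 0.10, adjusted p = 0.458) with LPS.

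MYC without LPS was lower in shNR4A2 cells, with the values given above and a log2 fold change against shNT by edgeR of -0.62 (SE 0.09, adjusted p = 0.00207), and had -0.08 (SE 0.08, adjusted p = 0.627) in shNR4A3 cells, where the groups overlapped. The direct comparison of shNR4A3 with shNR4A2 gave 0.54 (SE 0.09, adjusted p = 0.00627), and the call was lost when all 18 libraries were fitted together (adjusted p = 0.0828). With LPS, MYC had a log2 fold change of 0.52 (adjusted p = 0.151) against shNT in shNR4A2 cells and 0.41 (adjusted p = 0.203) in shNR4A3 cells, neither called by edgeR and both with overlapping groups. With the replicate block these became 0.49 (adjusted p = 2.14e-06) and 0.39 (adjusted p = 0.00253). Within each replicate number, MYC in shNR4A2 cells stood at 0.667, 0.678 and 0.605 of its shNT library without LPS and at 1.55, 1.22 and 1.30 with LPS. In shNR4A3 cells these ratios were 0.942, 1.025 and 0.791 without LPS and 1.385, 1.13 and 1.265 with LPS.

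PLK2 was higher in unstimulated shNR4A2 cells, with 14.2, 16 and 14.1 TPM against 8.84, 7.47 and 8.62 TPM in shNT cells and no overlap. The log2 fold change by edgeR was 0.83 (SE 0.13, adjusted p = 0.00345), and in shNR4A3 cells it was 0.12 (adjusted p = 0.661). With LPS the values against shNT were 0.45 (adjusted p = 0.121) and 0.23 (adjusted p = 0.263), which passed with the replicate block as 0.44 (adjusted p = 3.24e-06) and 0.23 (adjusted p = 0.0157). CDKN1A was higher in both knockdown lines with LPS, by 0.90 (SE 0.10, adjusted p = 0.00119) in shNR4A2 cells and 0.35 (SE 0.09, adjusted p = 0.0483) in shNR4A3 cells by edgeR. Without LPS it was 0.47 (adjusted p = 0.0978) and 0.23 (adjusted p = 0.317), and with the block 0.46 (adjusted p = 0.000342) and 0.23 (adjusted p = 0.0391). The call in shNR4A3 cells with LPS was lost with library size alone (adjusted p = 0.0788), in the fit of all 18 libraries (adjusted p = 0.146) and without any 1 library other than shNR4A3 LPS replicate 2 (adjusted p between 0.0835 and 0.155).

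AURKB (chr17:8204733-8210600), the kinase of the chromosomal passenger complex, was higher in shNR4A3 cells. It stood at 39.0, 55.1 and 47.3 TPM there without LPS against 31.2, 37.6 and 32.8 TPM in shNT cells, and at 32.7, 42.6 and 38.1 TPM with LPS against 28.1, 30.3 and 28.4 TPM. The groups did not overlap in either state, although the lowest shNR4A3 control library stood close to the highest of shNT. By edgeR the log2 fold change was 0.52 (SE 0.13, adjusted p = 0.0309) without LPS and 0.44 (SE 0.10, adjusted p = 0.0319) with LPS. The call without LPS was lost without shNR4A3 control replicates 2 or 3 or shNT control replicates 1 or 3 (adjusted p between 0.0943 and 0.116). The call with LPS was lost without shNR4A3 LPS replicate 3 or any 1 shNT LPS library (adjusted p between 0.0867 and 0.112), with library size alone (adjusted p = 0.0821) and in the fit of all 18 libraries (adjusted p = 0.065). In shNR4A2 cells AURKB had -0.01 (adjusted p = 0.988) without LPS and -0.14 (adjusted p = 0.517) with LPS.

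The replicate block called further members, at smaller values. In shNR4A2 cells without LPS it called RB1 lower (-0.35, adjusted p = 0.00163), CDK6 lower (-0.37, adjusted p = 0.00804) and the mitotic genes CCNA2, CCNB1, BUB1B, MKI67 and TOP2A lower, and E2F1, E2F2 and E2F8 higher. Of the replication genes it called MCM5 and CDC45 higher and MCM7 lower there. In shNR4A3 cells without LPS it called CDC20, AURKA, CDC25B and MCM3 higher and E2F8 lower (-0.32, adjusted p = 0.0161). All of these were below 0.5 on the log2 scale, and none passed without the block by edgeR. With LPS the block further called, in shNR4A2 cells, RB1 and the mitotic genes CCNA2, CCNB1 and BUB1B lower and CCNE2, E2F1, E2F2, E2F7 and MCM5 higher. In shNR4A3 cells with LPS it called the replication genes MCM2, CDT1 and RRM2 and also E2F8 lower, and CDK1, CDC25B and CDKN1B higher, with AURKB called higher as without the block. PLK3 was called higher with LPS in both (0.37, adjusted p = 0.000345, and 0.60, adjusted p = 0.000231). Compared directly without LPS, shNR4A3 and shNR4A2 cells had 3 members called, 1 higher and 2 lower, where 3.08% of all genes were called (1.14% higher, 1.94% lower), and with LPS 2, 1 in each direction (2.33% of all genes, 1.06% and 1.27%). With the block 12 members (8 higher, 4 lower, 11.6% of all genes) were called without LPS and 19 (11 and 8, 23.6%) with LPS, among them RB1 higher in shNR4A3 cells in both states (0.40, adjusted p = 0.0118, and 0.38, adjusted p = 0.00147). Of the 16 G2 and mitosis genes, all had a log2 fold change above 0 in that comparison without LPS (15 with library size alone) and 14 did with LPS. Without the block edgeR called 0 without LPS, with 4 at an unadjusted p under 0.05, and 1 with LPS, AURKB, while with the block 6 were called higher without LPS and 7 with LPS, and none lower.

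**Figure D4:**
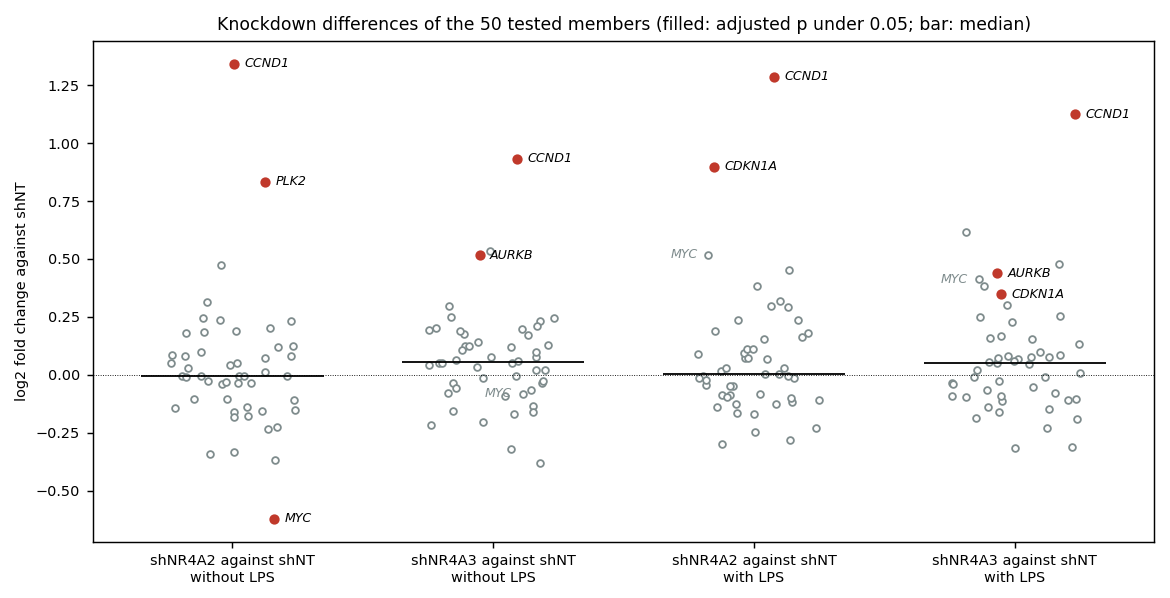
Log2 fold change against shNT (vertical axis) of the 50 tested members in each knockdown line, without and with LPS, with the median as a bar and members at an adjusted p under 0.05 filled and named. CCND1 stands above all other members in each comparison, and MYC, named in grey where not called, lies lowest in shNR4A2 cells without LPS at -0.62 and above 0 in both lines with LPS.

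Outside the members, genes of the other cell cycle, MAX network and antiproliferative lists were compared between each knockdown line and shNT. By edgeR 6.45% of all genes were called in shNR4A2 cells without LPS and 6.96% with LPS, and 7.23% and 6.45% in shNR4A3 cells. Of 11 other RB and E2F partners, 2 were called lower in shNR4A2 cells without LPS and 1 with LPS by edgeR, and none higher. With the replicate block, 2 were called higher and 2 lower there without LPS, and 1 and 3 with LPS. In shNR4A3 cells edgeR called 0 of the 11 in either state, with 3 at an unadjusted p under 0.05 in each. TFDP1 was called lower with LPS there when library size alone was used (-0.28, adjusted p = 0.0414). The block called 0 higher and 1 lower in shNR4A3 cells without LPS, and 1 and 2 with LPS. E2F5, a repressor E2F, and TFDP1, the dimer partner of E2Fs, were lower in shNR4A2 cells without LPS, with -1.07 (adjusted p = 0.0193) and -0.55 (adjusted p = 0.00367) by edgeR. With LPS TFDP1 was lower there too, at -0.62 (adjusted p = 0.00282), and E2F5 had -0.69 (adjusted p = 0.243), called with the replicate block (-0.75, adjusted p = 0.00153). The call of E2F5 without LPS ended without shNR4A2 control replicate 1 or shNT control replicate 3 (adjusted p = 0.0582 and 0.0812). Of 25 other cyclins, CDKs and CDK inhibitors, 1 was called higher and 1 lower in shNR4A2 cells without LPS, 2 higher and none lower with LPS, and in shNR4A3 cells 1 lower and none higher in each state. CDK18, a kinase of the PCTAIRE family, was higher in shNR4A2 cells without and with LPS, at 0.55 (adjusted p = 0.0418) and 0.76 (adjusted p = 0.0189). CDK19, a kinase of the Mediator complex, was lower there without LPS, at -0.39 (adjusted p = 0.0322), and CCNY, a membrane-bound cyclin, higher with LPS, at 0.34 (adjusted p = 0.0386). CCNA1, a cyclin of germ and myeloid leukaemia cells, was lower in shNR4A3 cells without and with LPS, with -1.21 (adjusted p = 0.000957) and -1.10 (adjusted p = 0.00882). The replicate block called 3 of the 25 higher and 4 lower in shNR4A2 cells without LPS and 6 and 5 with LPS, and 2 and 1, then 5 and 1, in shNR4A3 cells, beside 23.6%, 28.1%, 14.8% and 21.8% of all genes. Single libraries ended the calls of CDK18 in both states (adjusted p between 0.0592 and 0.187), of CDK19 (between 0.0582 and 0.154) and of CCNY (between 0.0767 and 0.191), and that of CCNY was also lost with library size alone (adjusted p = 0.0608). Of 48 other G2 and mitosis genes, TACC3, a spindle protein, was the one gene called without LPS, higher in shNR4A3 cells at 0.33 (adjusted p = 0.045). With LPS FOXM1, a transcription factor of mitotic genes, was called lower in shNR4A2 cells, at -0.51 (adjusted p = 0.018). Both calls were lost without single libraries, at adjusted p values up to 0.161 for TACC3 and 0.0719 for FOXM1, and that of TACC3 also with library size alone (adjusted p = 0.075). Of the 48 G2 and mitosis genes the replicate block called 1 higher and 11 lower in shNR4A2 cells without LPS and 1 and 14 with LPS, and 6 and 0, then 3 and 4, in shNR4A3 cells.

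Of 13 genes of the MYC and MAX network, 1 was called lower in shNR4A2 cells without LPS and 2 with LPS, and in shNR4A3 cells 1 was called higher and 1 lower in each state by edgeR. MXI1, a MAX partner that opposes MYC, was lower in shNR4A2 cells without and with LPS, at -0.65 (adjusted p = 0.00514) and -0.54 (adjusted p = 0.0463), and likewise in the shNR4A3 line, at -0.47 (adjusted p = 0.00956) and -0.65 (adjusted p = 0.0165). The calls of MXI1 with LPS ended in both lines without single libraries (adjusted p between 0.059 and 0.18), and that in shNR4A2 cells also with library size alone (adjusted p = 0.0568). MLX, a MAX-like partner of the MondoA factor, was lower in shNR4A2 cells with LPS, at -0.62 (adjusted p = 0.00725), also with library size alone (-0.66, adjusted p = 0.0106), and had -0.30 (adjusted p = 0.0728) without LPS. Without any single library of that comparison its adjusted p stayed between 0.00299 and 0.042. MXD4, another MAX partner that opposes MYC, was higher in shNR4A3 cells without LPS, at 0.41 (adjusted p = 0.0447), and MYCL, a MYC paralogue, with LPS, at 0.80 (adjusted p = 0.0441). Library size alone gave 0.38 (adjusted p = 0.0607) for MXD4 and 0.74 (adjusted p = 0.0525) for MYCL, and single libraries ended both calls too (adjusted p up to 0.179 and 0.14). Of the p53 targets, checkpoint and antiproliferative genes, 2 of 22 were called higher in shNR4A2 cells without LPS and 1 with LPS, none lower, and in shNR4A3 cells with LPS 2 of 21 were called higher and none lower. BTG2 was higher in shNR4A2 cells in both states, at 0.93 (adjusted p = 0.00085) and 0.69 (adjusted p = 0.00407), and likewise in the shNR4A3 line, at 0.65 (adjusted p = 0.00254) and 0.67 (adjusted p = 0.00302). Also called were BTG1 of the same family in shNR4A2 cells without LPS, at 0.46 (adjusted p = 0.045), and in shNR4A3 cells SESN2 and BTG3 without LPS, at 0.35 (adjusted p = 0.0342) and -0.43 (adjusted p = 0.0255), and TP53INP1 with LPS, at 0.98 (adjusted p = 0.0057). Single libraries ended the calls of BTG1 and BTG3 (adjusted p up to 0.158 and 0.0832). Of the 13 genes of the MAX network, 2 were called higher and 3 lower with the replicate block in shNR4A2 cells without LPS and 2 and 4 with LPS, and 1 and 1, then 4 and 2, in shNR4A3 cells, and of the p53 and antiproliferative list 2 and 1 without LPS and 8 and 2 with LPS in shNR4A2 cells, and 5 and 1 with LPS in shNR4A3 cells.

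Of the 22 MYC targets, 0 were called by edgeR in shNR4A2 cells without LPS, with 2 at an unadjusted p under 0.05, where 6.45% of all genes were called, and 18 had a negative log2 fold change, as did 7927 of all 15800 genes tested. With LPS 21 were negative against shNT, as were 7835 of all 15590 genes tested, and 2 were called lower (2.65% of all genes), POLR1B, a subunit of RNA polymerase I, with -1.03 (adjusted p = 0.00452) and PPAN, a ribosome assembly factor, with -0.59 (adjusted p = 0.0269). With the replicate block 4 of the 22 were called lower without LPS and 14 with LPS, and none higher, beside 23.6% and 28.1% of all genes called in either direction with it. The call of PPAN ended without single libraries (shNR4A2 LPS replicate 1 or any shNT LPS library, adjusted p between 0.0804 and 0.0901). In shNR4A3 cells 10 of the 22 were negative against shNT without LPS, as were 7727 of all 15322 genes tested, and 18 with LPS, as were 7962 of 15578, so that most of the list lay below 0 with LPS in both knockdown lines, which share the shNT libraries. By edgeR 0 of the 22 were called there in either state, with 3 and 2 at an unadjusted p under 0.05. Library size alone called 0 without LPS and 1 lower with LPS, and the replicate block 1 and 2 lower and none higher (14.8% and 21.8% of all genes called in either direction). The medians of the list in shNR4A2 and shNR4A3 cells were -0.11 and 0.04 without LPS and -0.22 and -0.08 with LPS.

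Monocyte markers moved with the knockdown lines. The summed level of the 12 was 3322 ± 314 TPM (SD, n = 3) in shNT, 4179 ± 323 TPM in shNR4A2 and 4488 ± 378 TPM in shNR4A3 control cells, and 2369 ± 300.3, 3346 ± 410.3 and 3399 ± 263 TPM with LPS. Against shNT, 4 of the 12 were called higher in shNR4A2 cells and 5 in shNR4A3 cells without LPS, and 3 and 4 with LPS, with none lower, where 3.63%, 3.91%, 4.31% and 3.99% of all genes were called higher. In the same order the counts with the replicate block were 7 higher and 1 lower, 7 and 0, 6 and 0, and 7 and 1 (23.6%, 14.8%, 28.1% and 21.8% of all genes called in either direction), the lower ones being CEBPA in shNR4A2 cells without LPS (-0.22, adjusted p = 0.00847) and FCGR1A in shNR4A3 cells with LPS (-0.19, adjusted p = 0.0404). LYZ stood at 198, 177 and 202 TPM in shNT, 675, 462 and 709 TPM in shNR4A2 and 1040.0, 708 and 901 TPM in shNR4A3 control cells, without overlap with shNT. With LPS against control in shNT cells, 2 of the 12 were called higher and 3 lower (11.6% and 13.3% of all genes). The part of these markers in the values of the members was not tested.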

How the data were processed

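Total RNA of THP-1 cells was measured by poly(A) RNA-seq with paired reads of 150 bases in 18 libraries, 16171161 to 23929138 counted reads each. The authors deposited raw read counts per gene. The submitters' processing notes name Trimmomatic 0.36, STAR 2.5.2b and featureCounts from Subread 1.5.2, and whether counting used strand is not given in the sources used here. Coordinates are GRCh38, and 56898 of 57500 gene identifiers matched a GENCODE 29 symbol. TPM was computed from the counts and the gene lengths in the files. Groups were compared with edgeR 4.0.16 (R 4.3.3): genes passing filterByExpr, TMM factors, the quasi-likelihood test on the 2 groups compared, or on 4 groups for the interaction, and Benjamini-Hochberg adjustment over all genes tested, with calls at an adjusted p under 0.05. The procedure was tested on simulated counts, where false calls exceeded the nominal share in most comparisons and the smallest changes were mostly missed, so calls with an adjusted p near the limit are less certain than it states. Alternatives were DESeq2 1.42.0, RLE factors, library size alone, no filter, 2-fold, a replicate block, all 18 libraries in 1 fit, and leaving out each library. Genes were named by a rule: MYC, NR4A2, NR4A3, the D cyclins, CDK6, CDKN1A, PCNA, MKI67 and CDK1 whatever their call, in each comparison up to 8 called members with the largest log2 fold change, and up to 2 called genes in each direction from each other list. Alternatives for single genes were run on these. Other members named, among them CDC45, CDC6, CDC25B, CDKN1B, CDKN2D and E2F2, were chosen after their values were seen, and every called member was recomputed under each alternative. Some genes of the lists, and counts that hold them, are not reported here. The members and lists were chosen with earlier results of these data known. Replicate numbers were taken to pair libraries where the lowest correlation of deviations from the group means, over 3 pairs, was over 0.1. It lay between 0.159 and 0.354 except for LPS in shNT cells (0.06) and the interactions (0.017 and 0.027). The mitochondrial share of counts was 1.05% to 2.19%. Exons of 16 members share bases with another gene, over 20% for CDK4, CCNE2 and TYMS, so their counts are uncertain. Promoters came from RefSeq.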

Additional observations from a re-analysis of the deposited data

Results flagged for a closer look

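In these results the 2 knockdown lines differed from each other in the direct comparison of shNR4A3 with shNR4A2 by edgeR's quasi-likelihood test, with 3 libraries in each group. Without LPS, MYC was higher in shNR4A3 cells by 0.54 on the log2 scale (adjusted p = 0.00627), without overlap of the libraries, a call lost in the fit of all 18 libraries (adjusted p = 0.0828). PLK2 had -0.71 (adjusted p = 0.0121), a call lost without shNR4A3 control replicates 1 or 3 (adjusted p = 0.0532 and 0.0592). E2F8 had -0.56 (adjusted p = 0.0253), a call lost without any 1 shNR4A3 control library or shNR4A2 control replicate 3 (adjusted p between 0.058 and 0.119). With LPS, CDKN1A had -0.55 (adjusted p = 0.0194), a call that held without shNR4A2 LPS replicate 3 and was lost without each of the other 5 libraries (adjusted p between 0.0509 and 0.131). AURKB had 0.58 (adjusted p = 0.0486), a call lost without each of the 6 libraries (adjusted p between 0.0519 and 0.181) and with library size alone (adjusted p = 0.101).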

How the results depend on the processing

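Counts of members called are given in the order LPS in shNT, shNR4A2 and shNR4A3 cells, then shNR4A2 and shNR4A3 against shNT without LPS, the same with LPS, and shNR4A3 against shNR4A2 without and with LPS. At 2-fold and more they were 5, 6, 6, 1, 0, 1, 1, 0 and 0, by construction of a stricter limit. The causes of the other changes were not tested. With library size alone 29 were called with LPS in shNR4A3 cells, 1 in shNR4A3 against shNT with LPS and 1 in shNR4A3 against shNR4A2 with LPS, and PCNA with LPS turned to -0.031, -0.079 and -0.184. Without the filter on low counts there were 6 in shNR4A2 against shNT without LPS, 4 with LPS, and 6 in shNR4A3 against shNT with LPS, where calls over all genes were 1611, 1843 and 1839, against 1019, 1085 and 1005 with it. With the replicate block the counts were 17, 8, 14, 13, 12 and 19 in the 6 comparisons between lines, and no member lost its call, beside 3733, 2267, 4385, 3401, 1800 and 3666 of all genes. In the interaction for shNR4A2, DESeq2, no filter and the block each called 1 member, MYC, of 2, 29 and 8 genes called in all.

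Leaving out 1 library gave 15 to 20, 10 to 14 and 14 to 23 members with LPS, 3 to 4 and 1 to 2 against shNT without LPS, 2 to 4 and 1 to 6 with LPS, 1 to 3 and 0 to 1 between the knockdown lines, and 0 to 1 and 0 to 0 in the interactions. For shNR4A3 against shNT, 1 was left without LPS without shNR4A3 control replicate 3 or shNT control replicates 1 or 3, and with LPS without shNR4A3 LPS replicate 2 the count was 6 (1693 of all genes called, against 1005 with every library), while leaving out shNR4A3 LPS replicate 3 or any shNT LPS library gave 1 (383 to 670 of all genes). For shNR4A2 against shNT with LPS 4 were called without shNR4A2 LPS replicate 2 (1477 of all genes, against 1085). Counts over all genes moved the same way as those of members in the omissions just named, but not in every omission. For shNR4A2 against shNT with LPS, 3 members were called without shNR4A2 LPS replicate 3, where 818 of all genes were, against 1085. Between the knockdown lines 1 was left without shNR4A3 control replicates 1 or 3, and with LPS 0 without any library other than shNR4A2 LPS replicate 3. Under these omissions PCNA with LPS in shNR4A3 cells ranged from -0.0022 to 0.038, MYC in shNR4A3 against shNR4A2 with LPS from -0.31 to 0.14, and NR4A2 in the interaction for shNR4A3 from -0.26 to 0.048. In shNT cells the correlations of LPS and control libraries were 0.255, 0.06 and 0.133. The lowest was under the limit of 0.1, so no pairing was assumed there. That limit cannot show that these libraries were unpaired, and replicate numbers did pair shNT with knockdown libraries in both states. The block there moved the count from 19 to 24, and that of all genes from 3909 to 5029. With 3 libraries a group, an exact permutation test of 1 value cannot give a p under 0.1.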

Other observations

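In the direct comparison of shNR4A3 with shNR4A2 cells, where replicate numbers paired the libraries, gene lists outside the members were called mainly with the replicate block, which called 11.6% of all genes without LPS and 23.6% with LPS. Of 48 other G2 and mitosis genes, 41 had a positive log2 fold change without LPS (median 0.18), where 7765 of 15584 genes tested did (median -0.001), and 31 did with LPS (median 0.06), or 27 with library size alone. By edgeR 0 of the 48 were called in either state, with 5 and 4 at an unadjusted p under 0.05, and with the block 7 were called higher without LPS and 11 with LPS, and none lower. Of 22 MYC targets of ribosome and polyamine synthesis, 20 were positive without LPS (median 0.14) and 21 with LPS (median 0.12). Without LPS 0 of the 22 were called, with 3 at an unadjusted p under 0.05, and with LPS 1 was, while the block called 3 and 8 higher. Of 36 other S phase genes, 23 were negative without LPS (median -0.04) and 30 with LPS (median -0.12), where 8013 of 15539 genes tested with LPS were. None of the 36 was called by edgeR in either state, with 1 and 8 at an unadjusted p under 0.05, while the block called 1 lower without LPS and 10 with LPS.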
